A study of Mus musculus with 6 samples.

Results

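The tumour necrosis factor (TNF) ligand and receptor superfamilies were examined in mouse liver. A gene was taken as a member where its array name starts with Tnfsf or Tnfrsf, or is Tnf, Lta, Ltb, Ltbr, Cd27, Cd40, Cd40lg, Cd70, Fas, Fasl, Ngfr, Relt, Edar or Eda2r. This gave 45 genes measured by 57 probes, of 31896 gene names and 39429 probes on the array, and they comprise 17 ligands and 28 receptors. RNA came from the non-tumor liver region of 6 male C57BL/6 mice that were 5 weeks old when they were put on their diets. All 6 mice, controls included, had received a tail vein injection of a transposon vector that carries human HrasG12V, a hairpin against p53 (shp53) and GFP4, which induces liver cancer, so no liver without the vector serves as a reference. Of these mice, 3 had a control diet and 3 a moderate restricted carbohydrate diet. The sample titles call both diets supplemented and do not say with what. By the sample labels, preliminary feeding lasted 1 week and the diet 5 weeks, whereas the series text gives 2 weeks and 4 weeks, and the series title adds plant compounds said to mimic calorie restriction to the diet, which the sample labels do not name. The comparison asks how the diet relates to gene expression in liver tissue next to induced tumours.

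TNF superfamily ligands are mostly membrane-bound trimers, some of which are shed by proteases, and they signal by clustering their receptors. Receptors with a death domain can assemble caspase-activating or necroptotic complexes, and most members recruit TRAF adaptors that lead to NF-kB and JNK signalling. Decoy and soluble receptors bind a ligand without passing on the signal. In liver, Kupffer cells and other leukocytes are a main source of TNF, hepatocytes carry TNF receptor 1 and Fas, and the family is known for its part in hepatocyte death, regeneration, inflammation and fibrosis.

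Tnf, Lta and Ltb lie side by side on chromosome 17, and in the data below Tnf and Ltb both fell while Lta was too dim to test. The promoter windows of Tnf and Ltb are shown because both of these neighbours were called. Ltb is also the only called member with a window that matched the NF-kB site consensus. Each window is the 250 bases before the gene's start in RefSeq on build GRCm38.p6, written along the gene's strand. The Tnf window is chr17:35202008-35202257 on the minus strand, with the TATAAA box that starts 29 bases before the gene start in capitals. The Ltb window is chr17:35194257-35194506 on the plus strand, with the NF-kB consensus match that starts 87 bases before the gene start in capitals.
Tnf: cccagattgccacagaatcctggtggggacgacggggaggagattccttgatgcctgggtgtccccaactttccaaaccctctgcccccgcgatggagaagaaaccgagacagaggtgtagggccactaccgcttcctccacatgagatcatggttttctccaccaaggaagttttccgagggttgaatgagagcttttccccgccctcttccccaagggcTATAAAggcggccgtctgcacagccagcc
Ltb: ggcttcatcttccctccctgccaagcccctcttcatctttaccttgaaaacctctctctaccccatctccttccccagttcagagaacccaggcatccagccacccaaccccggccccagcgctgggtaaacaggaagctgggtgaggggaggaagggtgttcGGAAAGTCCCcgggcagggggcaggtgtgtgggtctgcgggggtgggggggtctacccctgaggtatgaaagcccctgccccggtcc

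A window was available for 34 of the 45 members. On either strand, the NF-kB consensus matched in 4 of the 34 windows (11.8%): those of Ltb, Tnfrsf25, Tnfrsf8 and Tnfrsf9. Over all 27025 genes with a window, 2225 had a match (8.23%). Of the members called below, 1 of 10 with a window had a match. The letters TATAAA, or TTTATA on the other strand, occurred in 7 of the 34 windows (20.6%) and in 14.3% of all genes' windows. These matches describe letters in a short window and were not tested as binding sites.

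Expression was measured on 1-colour Agilent arrays, 1 array a mouse. A level is the log2 of the scanner's processed signal minus the 75th percentile of that array, so 0 is the 75th percentile and each unit is a doubling. Levels of different probes are not compared with each other, because probes differ in brightness. Signal at the 75th percentile ran from 287 to 574 across arrays, and 23527 to 25815 probes were well above background. Correlations between arrays were 0.976 to 0.988 for mice of the same diet and 0.925 to 0.947 for mice of different diets. The 3 control mice and restricted mouse 1 were on slide 1, and restricted mice 2 and 3 were on another slide. Values with slide as a block or within slide 1 are therefore given where they end a call. In both of these fits the difference is that of restricted mouse 1 from the 3 control mice. Tests used limma on 19616 features, p-values were adjusted by Benjamini and Hochberg, and called means an adjusted p under 0.05. With 3 mice a diet, the p-values set each difference against the spread between these mice, which limma adjusts toward that of all features. Differences are restricted minus control on the log2 scale, and the median feature differed by 0.12.

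Ligands and receptors that differed between the diets were lower on the restricted diet. Among 34 members that could be tested, 16 fell and none rose, beside 12.8% of all features called lower and 14.6% called higher (27.5% in either direction). Tnf, the family's founding cytokine, and Tnfsf9, Fasl, Tnfsf8, Ltb and the Tnfsf12-Tnfsf13 locus were the ligands that fell. Tnfrsf18, Relt, Ngfr, Tnfrsf21, Tnfrsf26, Tnfrsf11b, Tnfrsf23, Tnfrsf10b, Cd40 and Tnfrsf1b were the receptors that fell. Fas, Ltbr and Tnfrsf1a, receptors long known on hepatocytes, were not called. Markers of macrophages (15 of 16) and of stellate cells and fibroblasts (7 of 11) fell as well. Endothelial markers rose for 5 of 10 and hepatocyte markers for 1 of 14, with none lower in either list. Other cell types are given below, and the part of any of them in these results was not tested. Fewer cells of a type and less RNA per cell cannot be told apart in whole tissue.

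The median difference was -1.22 over the 34 tested members, -1.72 over 11 ligands and -0.85 over 23 receptors. These counts and medians carry a selection: a probe was tested where it was well above background in all mice of at least 1 diet. Of the 34 members, 9 passed through the control mice alone, and 5 of these were among the 11 ligands. The medians of ligands and receptors were not tested against each other. At an unadjusted p under 0.05, limma gave 1 member higher, Tnfsf15. Of the 25 members above background on all 6 arrays, 9 fell and none rose, beside 10.1% of such features called lower and 15% called higher. These were 2 of 6 ligands and 7 of 19 receptors. Levels of the diets did not overlap, with the restricted mice lower, for 19 of the 34 members, beside 18.8% of all features. On the brightest probe of each tested gene, no member had all restricted mice above all control mice, beside 26.1% of all features. A second probe of Tnfrsf13b did (0.57, adjusted p = 0.0891 in a fit of every probe). With no background filter, over all 17 ligands and all 28 receptors, the medians were -0.50 and -0.42, against 0.26 over all 31896 gene names. In that fit 4 ligands and 9 receptors were called lower, beside 2221 of the 31896 gene names called lower and 2232 called higher. Ltb, Cd40 and Tnfsf8 lost their calls (adjusted p of 0.0577 to 0.0662), and Tnfrsf8, above background in no mouse, was called higher.

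**Figure D1:**
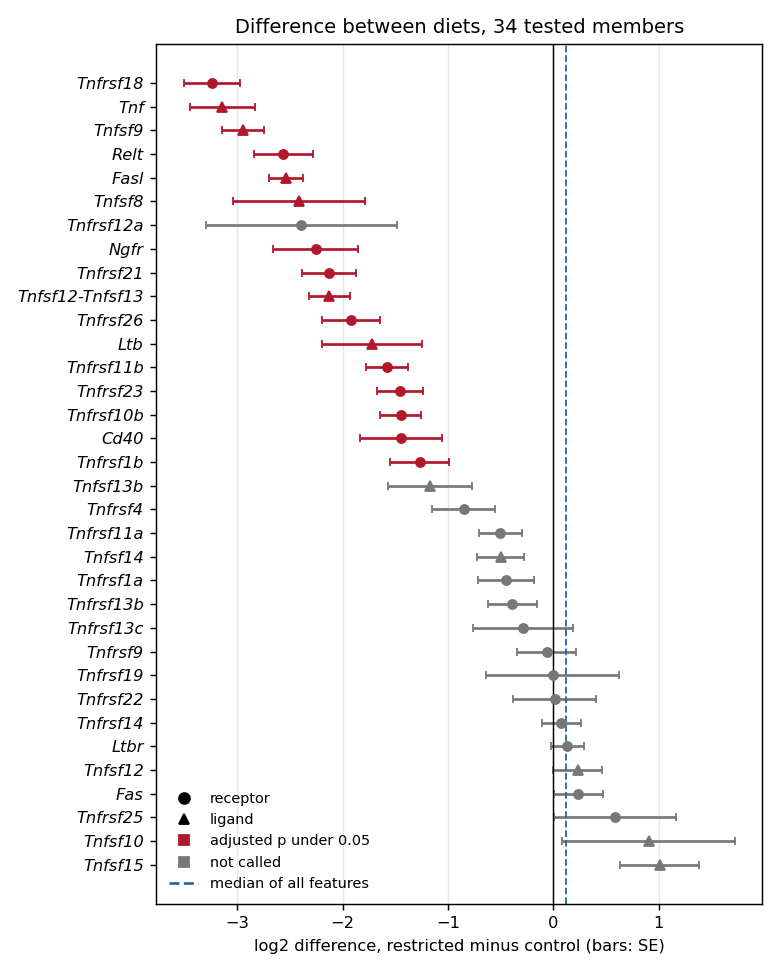
Difference between diets (horizontal axis, log2, restricted minus control, bars are standard errors) for the 34 tested members, with receptors as circles and ligands as triangles. The 16 members in red have an adjusted p under 0.05 and lie between -3.24 for Tnfrsf18 and -1.27 for Tnfrsf1b, and the dashed line is the median of all features at 0.12.

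Of the 17 ligands, 11 were tested, 6 fell, none rose and 5 were not called. Tnf encodes the cytokine that activates endothelium and macrophages and, through TNF receptor 1, can trigger hepatocyte death. Its probe lies at chr17:35336795-35336854 (mm9) and gave levels of -3.74, -4.19 and -3.16 in control mice 1, 2 and 3, and -7.21, -6.51 and -6.81 in restricted mice 1, 2 and 3. All 3 restricted mice were below all 3 control mice, and in none of them was the probe well above background. Tnf was therefore at least 2.35-fold lower on the restricted diet (fitted difference -3.14, SE 0.31, adjusted p = 0.000764). A lower limit of this kind sets the control mean against the faintest signal well above background on each restricted array, or against the probe itself where that was brighter.

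Ltb encodes lymphotoxin beta, the membrane anchor of the lymphotoxin heterotrimer that signals through Ltbr. Its levels were -0.60, -0.48 and 0.73 in control mice and -2.67, -1.54 and -1.32 in restricted mice. The groups did not overlap, and the lowest restricted mouse was mouse 1. The difference was -1.72 (SE 0.47, adjusted p = 0.0350). This call was lost when control mouse 1, 2 or 3 or restricted mouse 1 or 2 was left out, with adjusted p of 0.0515 to 0.0768 and differences of -1.96 to -1.30. Lta, which encodes the secreted lymphotoxin alpha, lies beside Tnf at chr17:35340275-35340334 (mm9). Its levels were -5.68, -4.83 and -3.91 in control mice and -7.03, -6.41 and -5.92 in restricted mice. The restricted mice were again the lower ones, but the probe was above background in 2 control mice and no restricted mouse, so Lta was not tested.

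Fasl encodes Fas ligand, by which cytotoxic lymphocytes kill cells that carry Fas. Levels were -4.41, -4.16 and -4.32 in control mice and -6.79, -6.83 and -6.89 in restricted mice, where the probe was not well above background. Fasl was at least 1.55-fold lower on the restricted diet (fitted difference -2.54, SE 0.16, adjusted p = 0.000318). The control mice lay close together for this gene. The restricted values lay below background, so their closeness does not measure how alike these mice were, although the fit took them as measured.

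Tnfsf9, the ligand that co-stimulates T cells through Tnfrsf9, had levels of -2.48, -2.57 and -2.83 in control mice and -5.52, -5.82 and -5.37 in restricted mice. No restricted mouse was above background, and the gene was at least 4.93-fold lower (fitted difference -2.95, SE 0.20, adjusted p = 0.000333). Tnfsf8, the ligand of CD30, had levels of -4.09, -4.63 and -2.65 in control mice and -7.32, -5.60 and -5.69 in restricted mice. It was likewise above background in all control mice and no restricted mouse, and was at least 2.20-fold lower (fitted difference -2.42, SE 0.63, adjusted p = 0.0294). The wide spread among control mice sets Tnfsf8 apart from Fasl and Tnfsf9. The Tnfsf8 call was lost without control mouse 1, control mouse 3 or restricted mouse 1 (adjusted p of 0.0529 to 0.0646).

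The probe named Tnfsf12-Tnfsf13 had levels of 0.84, 1.05 and 0.74 in control mice and -1.32, -0.98 and -1.45 in restricted mice, above background in all 6. The difference was -2.13 (SE 0.19, adjusted p = 0.000614), and the groups did not overlap. Its RefSeq accessions belong to Tnfsf13, the B cell factor APRIL, and to the readthrough gene Tnfsfm13, so transcripts of the 2 genes cannot be told apart here. A second probe of the same name gave -1.07 (adjusted p = 0.00461 in a fit of every probe). Tnfsf12 itself, which encodes TWEAK, a ligand of liver progenitor responses, differed by 0.23 (SE 0.23, adjusted p = 0.492), and its second probe gave -0.60, so its probes disagree in sign.

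Of the uncalled ligands, Tnfsf10 (TRAIL, an inducer of apoptosis) had levels of -4.03, -3.61 and -2.27 in control mice and -4.25, -1.56 and -1.38 in restricted mice. Restricted mouse 1 was the lowest of all 6, while the other restricted mice were the highest. The difference was 0.90 (SE 0.82, adjusted p = 0.450), but within slide 1 it was -0.95 (adjusted p = 0.458), and without restricted mouse 1 it was 1.83 (adjusted p = 0.0498). Tnfsf15 (TL1A, a T cell co-stimulator) differed by 1.01 (SE 0.38, adjusted p = 0.0894), and without control mouse 1 by 1.33 (adjusted p = 0.0469). Tnfsf13b (BAFF, the B cell survival factor) was above background in control mice alone, where its mean level was at least 1.80 times that of the restricted mice (fitted difference -1.17, SE 0.40, adjusted p = 0.0698). Its adjusted p was 0.0381 with slide as a block and 0.0299 without control mouse 3. Tnfsf14 (LIGHT, a ligand of Ltbr and Tnfrsf14) differed by -0.50 (SE 0.22, adjusted p = 0.138).

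In no mouse were Cd40lg, Cd70, Tnfsf11, Tnfsf18 and Tnfsf4 above background. They encode the ligands of Cd40, Cd27, RANK, GITR and OX40, most of them made by activated lymphocytes or antigen-presenting cells. Their levels lay between -7.84 and -6.82 in all mice, below the faintest signal well above background, which was -5.54 to -4.80 across arrays. A difference in these ligands was not detectable at this signal. In all, 5 ligands (Tnf, Tnfsf9, Fasl, Tnfsf8 and Tnfsf13b) were above background in every control mouse and no restricted mouse, and no member showed the reverse. These 5 passed the filter through the control mice alone. The share of all features with either pattern was not counted, so neither count is read as particular to the family.

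**Figure D2:**
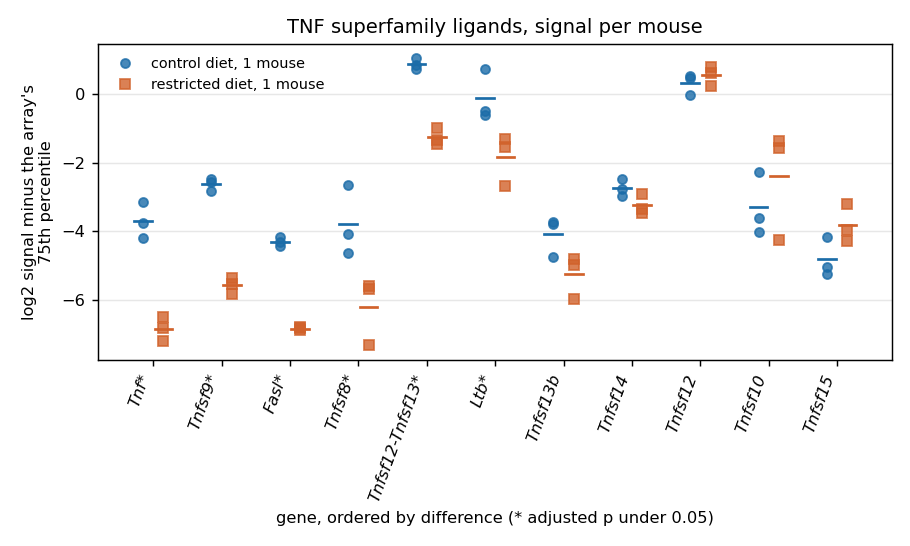
Level of each tested ligand (vertical axis, log2 processed signal minus the array's 75th percentile) in each mouse, with control mice as circles, restricted mice as squares and short lines at the diet means. Genes are ordered by their difference, levels of different genes are not comparable, and the asterisk marks the 6 genes with an adjusted p under 0.05. The diets do not overlap for these 6 nor for the uncalled Tnfsf13b.

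Among the 28 receptors, 23 were tested, 10 fell, none rose and 13 were not called. Grouped by textbook role, 3 of the 6 tested death domain receptors fell, as did 2 of 3 decoy or soluble receptors, 1 of 4 lymphocyte co-stimulatory receptors, none of 2 receptors for BAFF and APRIL, and 4 of 8 other receptors. The grouping was made with the data known and no group was tested against another.

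Among death domain receptors, Ngfr encodes the low-affinity neurotrophin receptor, which in liver is known from stellate cells. Its levels were -0.08, 0.23 and 0.29 in control mice and -3.03, -1.91 and -1.39 in restricted mice. All restricted mice were lower, with mouse 1 the lowest, and the difference was -2.26 (SE 0.40, adjusted p = 0.00734). Tnfrsf21 (death receptor DR6) had levels of -1.87, -1.93 and -2.69 in control mice and -4.34, -4.16 and -4.38 in restricted mice. The restricted mice lay close together below the controls, and the difference was -2.13 (SE 0.25, adjusted p = 0.00149). Tnfrsf10b encodes the receptor through which TRAIL kills cells in the mouse. Its levels were -1.50, -1.35 and -1.42 in control mice and -3.01, -3.04 and -2.57 in restricted mice. The diets did not overlap, and the difference was -1.45 (SE 0.19, adjusted p = 0.00219).

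The death receptors with the best-known part in hepatocyte death were not called. Fas had levels of 1.13, 1.53 and 1.62 in control mice and 1.93, 1.75 and 1.30 in restricted mice. The diets overlapped, with a difference of 0.24 (SE 0.23, adjusted p = 0.491). Tnfrsf1a, TNF receptor 1, had levels of 4.14, 4.04 and 3.95 in control mice and 4.11, 3.58 and 3.11 in restricted mice. Restricted mouse 1 lay among the controls and the other restricted mice below them, with a difference of -0.45 (SE 0.27, adjusted p = 0.260) and -0.43 from a second probe. Tnfrsf25, the receptor of TL1A, differed by 0.58 (SE 0.58, adjusted p = 0.490). Edar, the ectodysplasin receptor of skin appendages, was never above background.

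Tnfrsf1b, TNF receptor 2, which has no death domain and is known mainly from immune and endothelial cells, had levels of -0.33, -0.33 and -0.50 in control mice and -1.41, -2.26 and -1.30 in restricted mice. The diets did not overlap, and the difference was -1.27 (SE 0.28, adjusted p = 0.0153). With slide as a block it was -1.02 (adjusted p = 0.147), within slide 1 the adjusted p was 0.0863, and without control mouse 1 or 2 it was 0.0517 or 0.0558. Cd40, which drives activation of antigen-presenting cells and B cells, had levels of -3.73, -3.62 and -2.59 in control mice and -5.28, -4.18 and -4.82 in restricted mice. Its probe was above background in all control mice and 1 restricted mouse, and the difference was -1.45 (SE 0.39, adjusted p = 0.0334). With slide as a block it was -1.96 (adjusted p = 0.0522). The Cd40 call was also lost without control mouse 2 or 3 or restricted mouse 1 or 3 (adjusted p of 0.0563 to 0.0881).

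Relt, a receptor known from blood and lymphoid cells, had levels of -1.19, -1.44 and -1.61 in control mice and -4.55, -3.64 and -3.74 in restricted mice. It was above background in all 6 mice and the groups were far apart, with a difference of -2.56 (SE 0.28, adjusted p = 0.00108). Tnfrsf18 (GITR, a co-stimulatory receptor of regulatory and activated T cells) had levels of -1.81, -1.47 and -1.24 in control mice and -5.04, -4.92 and -4.28 in restricted mice. Its difference of -3.24 (SE 0.26, adjusted p = 0.000458) rests on a probe that was above background in 2 of 3 restricted mice. With the dim array set to its faintest signal well above background, the ratio was 9.32-fold.

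The soluble receptor gene Tnfrsf11b encodes osteoprotegerin, a decoy for RANKL and TRAIL. Its levels were -0.46, -0.31 and -0.50 in control mice and -2.17, -1.66 and -2.17 in restricted mice. All restricted mice were lower, and the difference was -1.58 (SE 0.20, adjusted p = 0.00191). Tnfrsf23, a mouse decoy receptor of TRAIL, had levels of -1.08, -1.55 and -1.67 in control mice and -2.84, -2.74 and -3.09 in restricted mice. The difference was -1.46 (SE 0.21, adjusted p = 0.00342), and within slide 1 the adjusted p was 0.0613. Its neighbour Tnfrsf22, the other mouse TRAIL decoy receptor, differed by 0.01 (SE 0.39, adjusted p = 0.986). A second Tnfrsf22 probe, above background in control mice alone and lower in all restricted mice, gave a fitted difference of -0.71 (adjusted p = 0.0920), a ratio of at least 1.10. Tnfrsf26, the third gene of that cluster, had levels of -2.46, -2.84 and -3.40 in control mice and -4.59, -4.80 and -5.07 in restricted mice. It was above background in 2 of 3 restricted mice, and the difference was -1.92 (SE 0.27, adjusted p = 0.00307), with an adjusted p of 0.0638 within slide 1.

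Tnfrsf12a (Fn14, the TWEAK receptor, known to be induced in injured liver) had levels of 3.20, 2.94 and 0.75 in control mice and 1.67, -0.72 and -1.23 in restricted mice. Control mouse 3 was below restricted mouse 1, so the diets overlapped, and the difference of -2.39 (SE 0.91) was not called (adjusted p = 0.0938). Within slide 1 the difference was -0.62 (adjusted p = 0.748). It passed the threshold without control mouse 3 (-3.17, adjusted p = 0.0369) and without restricted mouse 1 (-3.27, adjusted p = 0.0260). Ltbr, the lymphotoxin beta receptor, had levels of 3.90, 3.93 and 4.01 in control mice and 4.08, 3.99 and 4.18 in restricted mice. The diets overlapped, and the difference was 0.13 (SE 0.16, adjusted p = 0.561).

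The remaining tested receptors were not called. Tnfrsf4 (OX40) differed by -0.85 (SE 0.30, adjusted p = 0.0748) and Tnfrsf11a (RANK) by -0.50 (SE 0.20, adjusted p = 0.108), and both had all restricted mice below all control mice. Tnfrsf13b, Tnfrsf13c, Tnfrsf14 and Tnfrsf19 differed by -0.39, -0.29, 0.08 and -0.01. A second probe of the BAFF receptor Tnfrsf13c was above background in control mice alone and was at least 1.41-fold lower on the restricted diet (fitted difference -1.83, adjusted p = 0.0217 in a fit of every probe). Cd27, Eda2r, Tnfrsf17 and Tnfrsf8 were not tested: Cd27 was above background in 1 control mouse and the others in no mouse.

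Tnfrsf9, the co-stimulatory receptor CD137, differed by -0.06 (SE 0.28, adjusted p = 0.889) on a bright probe, while its second probe was above background in 1 mouse only and gave -0.95. The last 30 bases of both probes, on chromosome 4, are shown because they bear on which to read. The bright probe (chr4:150319582-150319641, mm9) ends in a run of 22 bases of alternating G and T, given in capitals. Such a run, or a longer one, is present in 45 probes of the array (0.114%). Whether the bright signal belongs to Tnfrsf9 was not tested.
Tnfrsf9 bright probe: taaaatcaGTGTGTGTGTGTGTGTGTGTGT
Tnfrsf9 second probe: taacatatttgtctttaccttttttaaatc

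**Figure D3:**
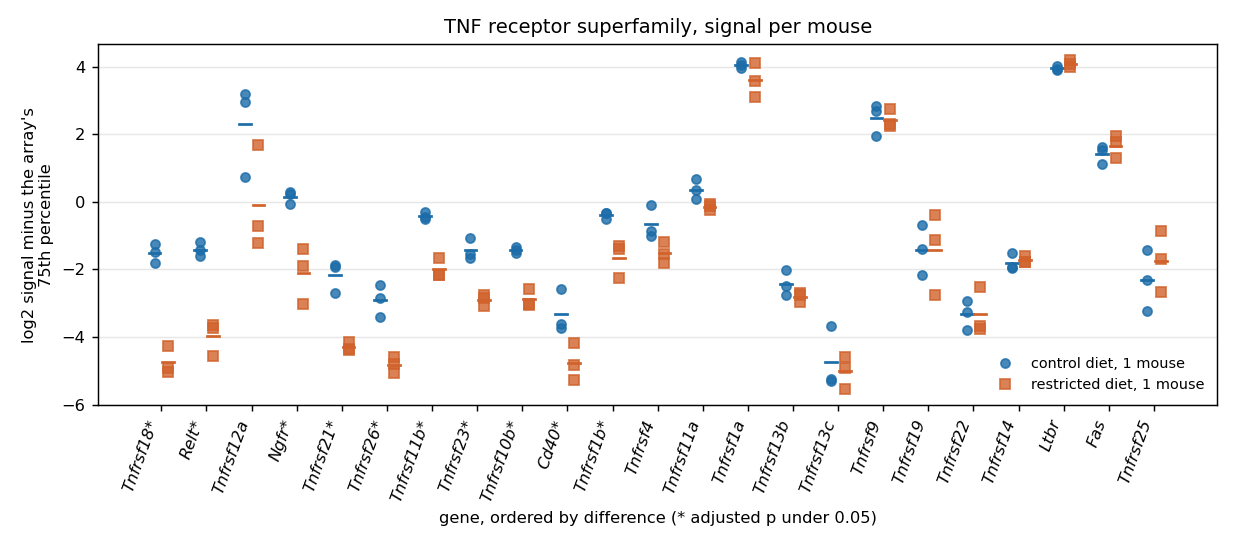
Level of each tested receptor (vertical axis, log2 processed signal minus the array's 75th percentile) in each mouse, with control mice as circles, restricted mice as squares and short lines at the diet means. The asterisk marks the 10 genes with an adjusted p under 0.05, the diets do not overlap for these nor for the uncalled Tnfrsf4 and Tnfrsf11a, and Tnfrsf12a shows the wide spread within both diets that left its difference of -2.39 uncalled.

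Set side by side as ligand and receptor, Tnf and its receptor Tnfrsf1b fell while Tnfrsf1a was not called, and Ltb fell while Ltbr was not called. Fasl fell and Fas differed by 0.24. Tnfrsf10b and Tnfrsf23 fell, whereas their ligand Tnfsf10 was not called. Tnfrsf18 fell and Tnfsf18 was never above background, and Cd40 fell with Cd40lg never above background. Whether ligand and receptor of a pair differ in their response was not tested.

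Several members neighbour each other. With gaps of at most 200 kb between probes (mm9), 22 of the 45 genes fall into 9 clusters. Ltb and Tnf fell and Lta was not tested within 7.2 kb of chromosome 17. In the cluster of 57.8 kb on chromosome 7, Tnfrsf26 and Tnfrsf23 fell and Tnfrsf22 between them was not called on either probe. On chromosome 4, Tnfrsf18 fell and Tnfrsf4, within 12.4 kb, was not called, and Tnfsf8 fell beside an uncalled Tnfsf15. The neighbours Cd27, Ltbr and Tnfrsf1a, in 129 kb of chromosome 6, held no called gene.

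Within slide 1, restricted mouse 1 alone stands against the 3 control mice and is assumed to vary like them. The diets did not overlap for any of the 16 called members, so a negative difference there was fixed beforehand, and the mouse is 1 of those already tested. The other slide held restricted mice only, so with slide as a block the difference also rests on restricted mouse 1. The 2 fits gave the same differences, such as -3.51 for Tnf, and are not separate checks. The differences of Tnfsf10, Tnfrsf12a and Tnfrsf19 moved most between all 6 mice and slide 1, and none of these was called over all 6 mice.

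**Figure D4:**
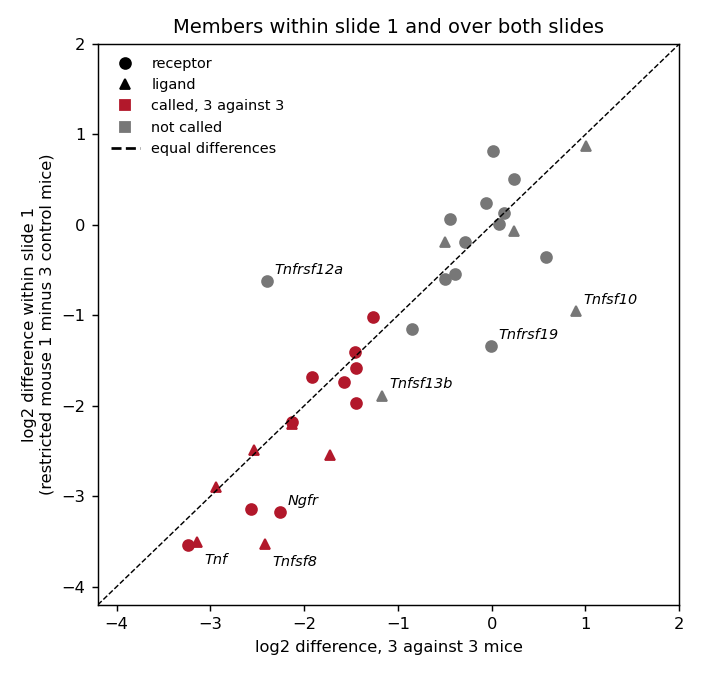
Log2 difference (restricted minus control) of the 34 tested members over all 6 mice (horizontal axis) and within slide 1 (vertical axis), where 1 restricted mouse stands against 3 control mice. The 16 called members, in red, lie below 0 on both axes, as their lack of overlap fixes, and Tnfsf10 changes from 0.90 to -0.95.

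The treatment of background changed the sizes. With normexp background correction, which adds an offset of 50 before the logarithm and so compresses dim probes, all 16 differences were still negative and 11 were called. Among ligands the difference of Tnf became -0.33, that of Fasl -0.07, that of Tnfsf8 -0.22 and that of Tnfsf9 -0.67. Calls were lost for Tnf (adjusted p = 0.275), Fasl (0.805), Tnfsf8 (0.583), Tnfrsf26 (0.0896) and Cd40 (0.420). Among receptors Tnfrsf18 became -1.31, Relt -1.18, Tnfrsf21 -0.72, Tnfrsf10b -0.73 and Tnfrsf23 -0.76, and these stayed called.

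Genes that carry the signal onward or act on the ligands were read from lists of 98 genes, of which 92 were tested: 27 fell, 8 rose and 57 were not called, with a median of -0.12, beside 12.8% of all features called lower and 14.6% called higher. With slide as a block 17 were called lower and 5 higher. Fewer of all features were also called higher in both slide fits, with counts in the closing section. The drop is therefore not read as particular to these genes. Among TNF-induced genes 10 of 14 fell and 1 rose, and 5 were called lower and 1 higher in either slide fit. Il6, the acute phase cytokine, fell by 3.59 (SE 0.39, adjusted p = 0.00109), and Tnfaip8 and Tnfaip8l2, related regulators of cell death and immunity, fell by 2.64 (adjusted p = 0.000538) and 2.49 (adjusted p = 0.000470). Sod2, the mitochondrial superoxide dismutase, rose by 1.17 (SE 0.15, adjusted p = 0.00219). Many of these genes answer to other signals than TNF as well.

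Among NF-kB subunits and inhibitors 4 of 10 fell and none rose: the subunits Relb (-1.71, adjusted p = 0.00471) and Nfkb1 (-1.06, adjusted p = 0.0120) and the inhibitors Nfkbie (-1.87, adjusted p = 0.0111) and Nfkbid (-1.67, adjusted p = 0.00295). Within slide 1 the adjusted p of Nfkb1 was 0.0674. The kinases held 2 lower and 1 higher of 16, shares close to those of all features. Map3k14, the NIK kinase of the non-canonical branch, fell by 2.46 (adjusted p = 0.000684) and Map3k8 fell by 1.86 (adjusted p = 0.0355), while Chuk, the kinase IKK alpha, rose by 0.94 (adjusted p = 0.00828). The call of Map3k8 was lost with slide as a block (adjusted p = 0.334), and within slide 1 the adjusted p of Chuk was 0.0882. Of 10 TRAF adaptors and partners, Traf1 (-2.76, adjusted p = 0.00227) and Traf7 (-0.81, adjusted p = 0.0134) fell and Traf4 (0.94, adjusted p = 0.0382) rose. Both Traf4 (0.54, adjusted p = 0.344) and Traf7 (adjusted p = 0.0820) lost their calls with slide as a block.

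The ubiquitin enzymes of the receptor complex held 4 lower and 1 higher of 15. Tnfaip3 (A20, the deubiquitinase that restrains NF-kB) fell by 2.61 (adjusted p = 0.00204), its partners Tnip2 by 1.38 and Tnip1 by 0.69 (adjusted p = 0.0219 and 0.0298), and the ligase gene Itch rose by 0.84 (adjusted p = 0.0273). The calls of Tnip2 (-0.81, adjusted p = 0.224), Tnip1 (adjusted p = 0.145) and Itch (adjusted p = 0.0612) were lost with slide as a block. In the death machinery 3 of 17 fell and 2 rose, again close to the shares of all features. Ripk3, the necroptosis kinase, had levels of 0.72, 1.38 and 0.20 in control mice and -2.52, -2.19 and -2.06 in restricted mice, and fell by 3.02 (SE 0.32, adjusted p = 0.000943). Its substrate Mlkl fell by 0.93 (adjusted p = 0.0197) and the apoptosis effector Bak1 by 0.78 (adjusted p = 0.0239), and Faf1, a Fas-associated factor, rose by 0.79 (adjusted p = 0.0179). In the slide block fit the calls of Bak1 (adjusted p = 0.216) and Faf1 (adjusted p = 0.101) were lost, and within slide 1 that of Mlkl (adjusted p = 0.0789).

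Of 9 genes of ligand processing, the protease gene Adam10 fell by 1.34 (adjusted p = 0.00146) and Rhbdf2, a cofactor of TNF shedding, fell by 0.98 (adjusted p = 0.0200). Timp3, an inhibitor of the sheddases, rose by 1.44 (SE 0.21, adjusted p = 0.00327). The ligand gene Eda, which the rule for members does not take in, rose by 1.04 (SE 0.28, adjusted p = 0.0339), and its receptors Edar and Eda2r were never above background. With slide as a block the calls of Rhbdf2 (-0.54, adjusted p = 0.205) and Eda (adjusted p = 0.0930) were lost, and within slide 1 that of Timp3 (adjusted p = 0.0793).

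**Figure D5:**
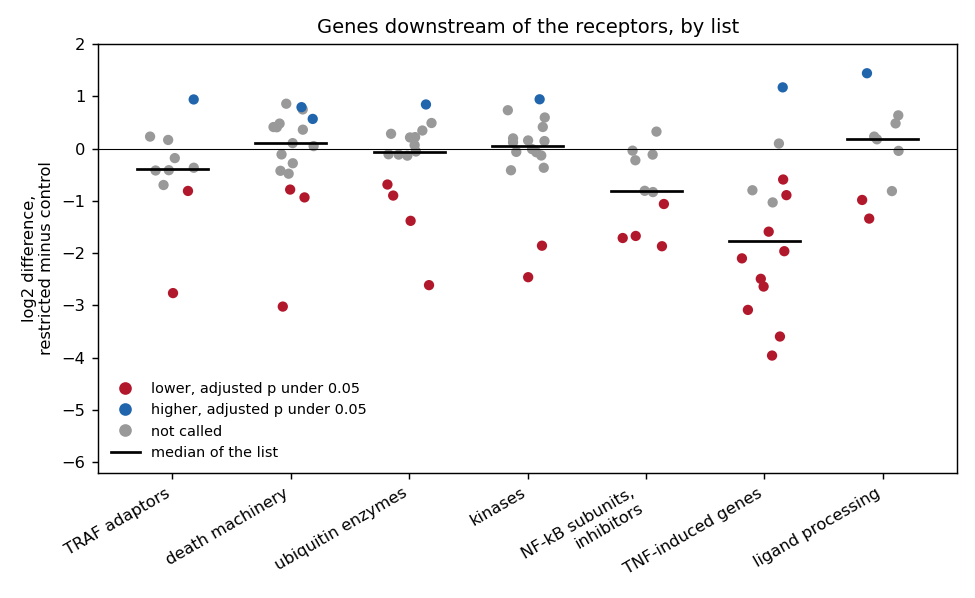
Log2 difference (vertical axis, restricted minus control) of each tested gene in 7 pathway lists, with red points lower and blue points higher at an adjusted p under 0.05, grey points not called and black lines at the list medians. Ripk3 at -3.02 is the lowest gene of the death machinery, while that list's median is 0.10 and that of the TNF-induced genes is -1.78.

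Marker lists of liver cell types were read beside the 12.8% of all features called lower and the 14.6% called higher. Their part in the results of the members was not tested. Summed levels add the signals of a list, in units of the array's 75th percentile, so bright probes weigh most. Of 16 macrophage and Kupffer cell markers 15 fell, and their summed level was 246 to 324 in control mice and 64.3 to 90.4 in restricted mice. Neutrophil markers fell for 7 of 12 and rose for 1, with sums of 153 to 187 and 91.9 to 135, or 32.0 to 109 and 4.93 to 27.4 without the uncalled Csf3r, the brightest of them. T cell markers fell for 7 of 12 tested and rose for 1, but the uncalled Cd4 makes up 71.8% to 85.9% of their sums of 33.0 to 48.8 and 29.1 to 42.3. Without Cd4 the T cell sums still overlapped, at 6.59 to 8.75 in control mice and 7.38 to 8.96 in restricted mice. Within slide 1, 3 of the 12 were called lower and none higher. Dendritic cell markers fell for 5 of 8, but the uncalled Siglech makes up 89.9% to 99.5% of their sums of 124 to 187 and 144 to 219. Without it the sums were 11.6 to 15.5 and 0.864 to 1.79, and Xcr1 was never above background. Among natural killer cell markers 1 of 6 fell, with sums of 3.20 to 4.53 and 3.80 to 4.45, or 1.10 to 1.62 and 0.731 to 1.05 without the uncalled Nkg7, and Ncr1, Klrk1 and Eomes were never above background. Among B and plasma cell markers 2 of 7 fell, with sums of 3.34 to 4.09 and 1.80 to 3.16, and Blk was never above background.

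Of the cells fixed in the tissue, stellate cell and fibroblast markers fell for 7 of 11, with sums of 115 to 150 in control mice and 46.6 to 76.3 in restricted mice, and bile duct and progenitor markers fell for 3 of 7, with sums of 6.05 to 6.97 and 1.05 to 3.24. Endothelial markers rose for 5 of 10 and none fell, with sums of 24.9 to 37.2 and 42.5 to 56.4, and 1 was called higher within slide 1. All 14 hepatocyte markers passed the background filter, 1 rose and none fell, with overlapping sums of 1230 to 1713 and 1579 to 2008.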

How the data were processed

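Processed signal intensity was taken from the scanner files that the authors deposited, made by Agilent Feature Extraction 10.7.3.1 per the file headers (9.3.2.1 per the submitters' processing notes); probe positions are on mm9, per the file headers. The deposited value table holds the same intensity on the linear scale, not centred (column medians 27.5 to 52.1), within 0.1% for 99.67% to 99.77% of probes. Outlier spots (127 to 251 per array) were left out, log2 was taken, the 43020 spots were averaged to 39429 probes and each array's 75th percentile was subtracted. Probes well above background in every mouse of 1 diet or both were kept (24234), and the brightest probe of each name gave 19616 features. RefSeq accessions were matched for 26055 probes and changed 3358 names, and members kept their array names. Diets were compared with limma 3.58.1 in R 4.3.3 with Benjamini-Hochberg adjustment, over all 6 mice. On simulated data of 19616 features, 71 of 100 changes of 2 log2 units and 14 of 100 of 1 unit were recovered. Of 93 calls there, 8 were false. A far smaller share of features was changed in the simulation than the 27.5% called in the real data, so these rates may differ from those of the real fit. The number of arrays limits the precision.

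The members and lists were chosen with earlier results of these data known. Every member may be named; values per mouse are given for 12 members fixed by rule and for each called member, and up to 4 called genes of each pathway list are named by smallest p. Ripk3 is given per mouse and Eda's receptors are named outside that rule, after their values were seen. Alternatives changed background correction, scaling, filters, probes, moderation, weights, slide, pairing, threshold and mice.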

Additional observations from a re-analysis of the deposited data

How the results depend on the processing

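Of the values of the 16 called members under the alternatives, 269 kept the call and 28 lost it; all were negative, which the lack of overlap between diets fixes where mice or slides were left out. Of the values of uncalled members, 12 gained a call and 28 changed sign. Whether mouse numbers pair the samples was not settled. Correlations of deviations were 0.38, -0.002 and 0.48 for same-numbered mice and ran from -0.50 to 0.12 for the other pairs. With the replicate block all 16 calls remained and Tnfrsf12a gained a call (-2.39, adjusted p = 0.0133). Dim ligands limit the sizes: they have only bounds. The cause of each change below was not tested, beyond fewer mice or fewer features where these were taken out.

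Ligands called lower went from 6 to 3 with normexp and 2 with all arrays above background, and ran from 4 to 6 as each mouse was left out; receptors called lower went from 10 to 6 within slide 1 and ran from 8 to 10. Ligands called higher went from 0 to 1 (Tnfsf15) with array weights and at adjusted p under 0.10, and ran from 0 to 1 over the left-out mice. Receptors called higher went to 1 with no background filter (Tnfrsf8, above background in no mouse). Features called lower fell from 2518 to 1598 within slide 1 and 1416 at 0.01, against 1750 to 2499 over the left-out mice. Features called higher went from 2868 to 4863 with array weights, 1120 with the slide block, 656 within slide 1 and 1117 at 0.01, and ran from 1549 to 3319. Pathway genes called lower went from 27 to 17 with the slide block, 14 within slide 1 and 13 at 0.01, and ran from 17 to 24. Pathway genes called higher went from 8 to 4 with no filter, 17 with array weights, 5 with the slide block, 1 within slide 1 and 3 at 0.01, and ran from 3 to 8.

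With the slide as a block or slide 1 alone, Tnfsf10 became -0.95, Tnfrsf25 -0.36, Tnfsf12 -0.0709, Tnfrsf1a 0.0651 and Tnfrsf9 0.25. With array weights Tnfrsf22 became -0.26 and Tnfrsf19 0.24. With median scaling Tnfrsf19 became 0.0835 and Tnfrsf9 0.0286. With normexp Tnfrsf19 became 0.10 and Tnfrsf13c 0.15. With quantile normalization Ltbr became -0.15 and Tnfrsf19 0.0781. Over the left-out mice Tnfrsf9 ran from -0.33 to 0.11, Tnfrsf14 ran from -0.0039 to 0.21, Tnfrsf13c ran from -0.56 to 0.24, Tnfrsf19 ran from -0.52 to 0.66 and Tnfrsf22 ran from -0.39 to 0.23.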
